A study of Mus musculus with 42 samples.

Results

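Macrophages labelled as MS4A4A knockout (KO) were set beside wild-type macrophages (WT) in the first hours of dexamethasone (Dex), and few genes separated the genotypes. The members are all libraries whose titles give Dex at 2 h or 8 h, 12 of the 42 libraries in the series: 3 KO and 3 WT after 2 h, and 3 KO and 3 WT after 8 h. All cells were bone marrow-derived macrophages, grown from mouse marrow with the growth factor M-CSF, detached, replated and given 1 µM Dex a day later, and all 11160 genes of the deposited table were tested. Untreated, vehicle and 24 h libraries entered the same model and are used only for comparison. The labels give neither the strain, sex or age of the mice, nor how the KO was made and which part of the gene it lacks. They also do not say whether replicates were separate cultures or animals, so p-values measure the spread between these libraries, which may be technical.

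MS4A4A is a membrane protein with several spanning segments that sits on macrophages, and glucocorticoids are known to raise its transcript. Dex binds the glucocorticoid receptor, a transcription factor held by chaperones in the cytoplasm until it meets its ligand. The bound receptor enters the nucleus, switches on genes such as Fkbp5 and Tsc22d3, and restrains inflammatory transcription driven by NF-kB and AP-1. The study asked whether macrophages of the knockout respond differently to the steroid.

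The 12 libraries held 21442700 to 33528400 estimated counts (median 29092800). Time was the main axis of their variation, with 67.6% of variance on the component that parts 2 h from 8 h. Levels are given as CPM, counts relative to library size after TMM scaling, in the order of replicate numbers 1, 2 and 3. Of the macrophage markers, Adgre1, the gene of F4/80, stood at 2299, 1921 and 2010.0 CPM in KO and 1729, 1751 and 1737 CPM in WT at 2 h. Of other cell types, markers of B cells summed to 3.34 to 5.92 CPM in KO and 2.84 to 4.73 CPM in WT at 2 h (2 genes measured), and those of stromal cells to 22.7 to 29.8 CPM in KO and 17.3 to 30.5 CPM in WT (10 genes). Neutrophil markers (8 genes) summed to 251 to 300.2 CPM in KO and 221 to 325 CPM in WT at 2 h. Their mean log2 CPM varied more between libraries, at 2.92, 3.56 and 4.09 in KO and 3.31, 3.03 and 4.27 in WT. Cd4, 1 of 2 measured T and NK cell markers, stood at 8.98, 8.44 and 17.7 CPM in KO and 16.6, 14.9 and 21.2 CPM in WT at 2 h and at 6.63, 8.61 and 11.3 CPM in KO and 12.2, 11.4 and 11.7 CPM in WT at 8 h. Cd4 overlapped between the genotypes at 2 h and was lower in KO without overlap at 8 h, as were 3.93% of all genes. Its averaged log2 difference was -0.50 ± 0.21 (unadjusted p = 0.0219, edgeR quasi-likelihood). The other marker, Il7r, overlapped at both times and differed by 0.08 ± 0.10 at 2 h. Summed, the 2 markers stood at 391 to 434 CPM in KO and 379 to 406 CPM in WT at 2 h. At 8 h they summed to 256 to 312 CPM in KO and 253 to 294 CPM in WT. Kit, the only measured mast cell marker, differed by -0.65 ± 0.25 on the log2 scale, with overlap at both times. The part of these cells in the results below was not tested. All 4 measured Y-linked genes were present in all 12 libraries. A single library stood apart in a mitochondrial transcript: mt-Co1 stood at 419.9, 1518 and 1959 CPM in KO at 2 h, against 1951, 2002 and 1854 CPM in WT.

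Ms4a4a, the targeted gene, was lower in KO libraries than in WT libraries at both times, but its transcript was present in all of them. It is a protein-coding gene on the plus strand of chromosome 19 (GRCm38, chr19:11375523-11392790). At 2 h it stood at 70.5, 79.4 and 66.5 CPM in KO and 104, 120.3 and 124 CPM in WT. After 8 h it stood at 368, 424 and 379 CPM in KO and 596, 649 and 647 CPM in WT. Every KO library was below every WT library of its time, which held at both times for 26 genes (0.233%), and the 8 h levels were higher than the 2 h levels in both genotypes. The log2 difference between KO and WT, averaged over both times, was -0.69 ± 0.15 (SE; 95% interval -0.99 to -0.39), or 0.620 of the WT level. It missed the threshold of 0.05 over all genes (adjusted p = 0.0901, edgeR quasi-likelihood, Benjamini-Hochberg). It was -0.69 at 2 h and -0.69 at 8 h. The call depended on the fit: adjusted p was 0.00502 with DESeq2, 0.000635 with edgeR on the 12 libraries alone, and 0.991 with edgeR when the 2 h and 8 h counts of a replicate number were summed into 3 sets a side. Whether the transcript left in KO is full length was not tested, since the table holds 1 value a gene.

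Averaged over 2 h and 8 h, 5 of 11160 genes (0.0448%) differed between KO and WT, all 5 higher in KO (edgeR quasi-likelihood, adjusted p under 0.05). At an unadjusted p under 0.05 stood 556 genes (4.98%), 271 higher and 285 lower. Of the 5, 4 are the neighbours Srp54a, Fam177a, Srp54b and 1700047I17Rik2 on chromosome 12, and the remaining one is 3830403N18Rik on the X chromosome. The median log2 difference over all genes was -0.0025, and 16 genes differed by more than 1 on the log2 scale in either direction. For 10191 genes (91.3%) the 95% interval lay within 1.5-fold up or down. The averaged test counts 6 libraries a side, which takes the 2 h and 8 h libraries of a number as independent. With the 2 h and 8 h counts summed into 3 sets a side, edgeR called 0 genes (361 at an unadjusted p under 0.05), and fitted on the 12 libraries alone it called 1, Ms4a4a. With the replicate number as a block in that fit on 12 libraries it called 9 genes, the 5 among them. Leaving out 1 library gave 0 calls without WT number 3 at 2 h or WT number 2 or 3 at 8 h, 1 without WT number 2 at 2 h, and 3 without KO number 2 at 2 h or KO number 3 at 8 h.

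**Figure D1:**
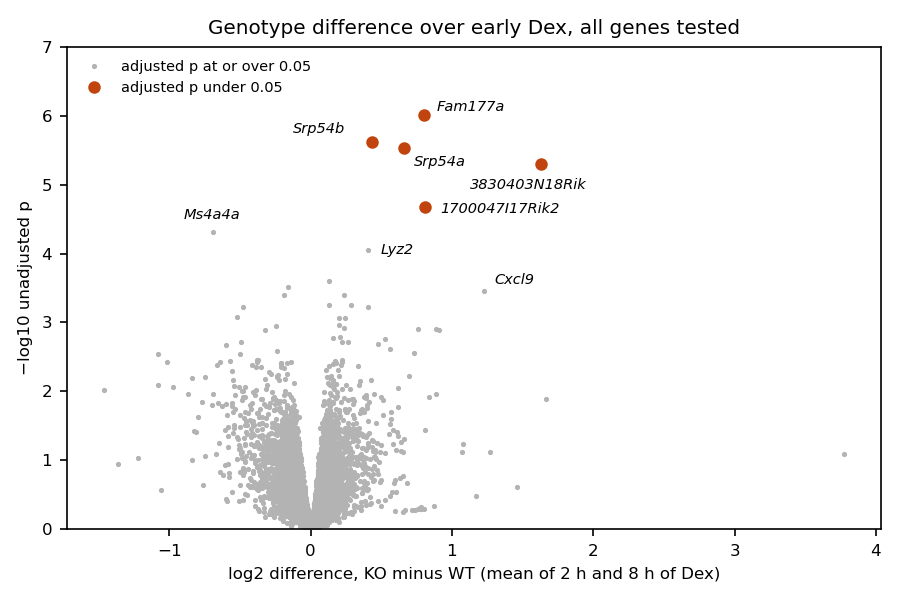
Each point is 1 of 11160 genes, with the log2 difference between KO and WT averaged over 2 h and 8 h of Dex on the x axis and −log10 of the unadjusted p (edgeR quasi-likelihood) on the y axis. The 5 genes past the adjusted threshold, in red, all lie on the side higher in KO, while Ms4a4a, on the other side, lies just under them in p.

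Srp54a and Srp54b are gene copies for the 54 kDa subunit of the signal recognition particle, which binds signal peptides as they leave the ribosome and brings the ribosome to the endoplasmic reticulum. Fam177a and 1700047I17Rik2 are a second pair of copies. In GENCODE mouse release 21 (GRCm38, chromosome 12, plus strand), the longest coding sequences of Srp54a and Srp54b, 1512 bases each, differ at 0 bases, and those of Fam177a and 1700047I17Rik2, 621 bases each, also differ at 0 bases. Coding bases 1 to 120 are shown because the counts of 4 of the 5 called genes rest on such sequence; both genes of a pair hold the same letters, and capitals mark the start codon.
Srp54a and Srp54b: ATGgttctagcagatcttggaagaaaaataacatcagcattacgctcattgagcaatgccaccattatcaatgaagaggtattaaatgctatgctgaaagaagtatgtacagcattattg
Fam177a and 1700047I17Rik2: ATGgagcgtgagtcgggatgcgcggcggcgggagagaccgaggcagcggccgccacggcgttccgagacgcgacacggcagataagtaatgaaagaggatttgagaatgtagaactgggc
A read from these stretches cannot be placed in one copy rather than the other.

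The 4 chromosome 12 genes were higher in KO than in WT at both times, with no overlap between the genotypes at either. Across all genes, 51 (0.457%) had every KO library above every WT library at both times. Fam177a, whose protein has no well-described role, stood at 85.0, 87.0 and 86.8 CPM in KO and 64.4, 38.4 and 41.5 CPM in WT at 2 h. At 8 h it stood at 66.1, 80.0 and 77.0 CPM in KO and 51.9, 39.3 and 40.3 CPM in WT. The KO libraries were close together at 2 h, while among the WT libraries number 1 was well above numbers 2 and 3. Fam177a was 1.74-fold higher in KO (log2 0.80 ± 0.13, 95% interval 0.53 to 1.07; adjusted p = 0.0108, edgeR quasi-likelihood).

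1700047I17Rik2, a protein-coding copy of Fam177a, stood at 32.8, 35.0 and 30.1 CPM in KO and 24.4, 17.2 and 14.7 CPM in WT at 2 h. At 8 h the values were 21.9, 31.3 and 28.2 CPM in KO and 19.7, 12.8 and 13.5 CPM in WT. Here too the genotypes were apart at both times and number 1 was the highest WT library, and at 8 h KO number 1 was close to WT number 1. The log2 difference was 0.81 ± 0.16 (adjusted p = 0.0473, edgeR quasi-likelihood), the weakest of the 5 calls by p.

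Srp54a stood at 65.0, 63.1 and 58.7 CPM in KO and 48.0, 29.7 and 34.9 CPM in WT at 2 h. At 8 h it stood at 60.5, 58.7 and 61.0 CPM in KO and 50.3, 33.8 and 35.6 CPM in WT. The lowest KO library was above the highest WT library, number 1, at both times. The log2 difference was 0.66 ± 0.12 (adjusted p = 0.0108, edgeR quasi-likelihood). Srp54b stood at 145, 129 and 132 CPM in KO and 111, 87.5 and 96.2 CPM in WT at 2 h, and at 126, 126 and 124 CPM in KO and 110.0, 80.1 and 93.4 CPM in WT at 8 h. Its difference of 0.43 ± 0.08 on the log2 scale was the smallest of the 5 calls (adjusted p = 0.0108, edgeR quasi-likelihood).

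**Figure D2:**
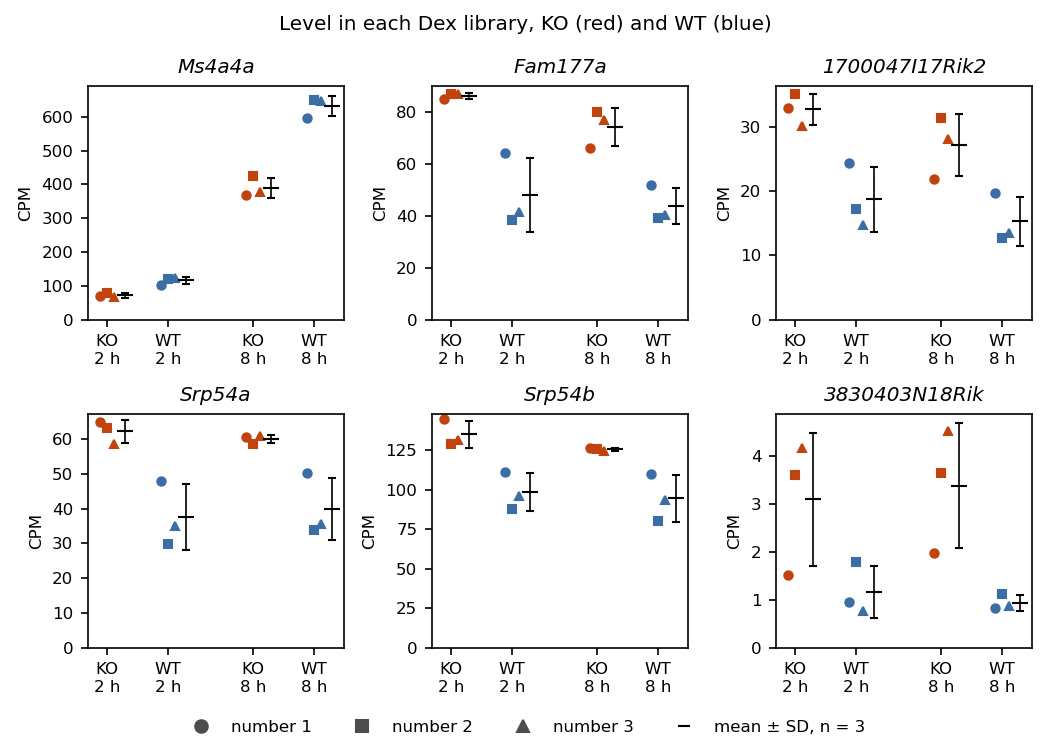
CPM of Ms4a4a and of the 5 genes called over the average of both times in each library, with KO in red to the left of WT in blue at 2 h and at 8 h; circles, squares and triangles are replicate numbers 1, 2 and 3, and bars give the mean ± SD of 3 libraries. Ms4a4a is below WT in all KO libraries, the 4 chromosome 12 genes are above WT in all KO libraries with WT number 1 the highest WT library, and 3830403N18Rik overlaps at 2 h.

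The 4 genes lie one after the other on the plus strand of GRCm38, Srp54a at chr12:55080262-55115367, Fam177a at chr12:55124469-55142104, Srp54b at chr12:55155104-55189573 and 1700047I17Rik2 at chr12:55199592-55217168. The next measured genes on either side did not follow them. 2700097O09Rik, before Srp54a, had a log2 difference of 0.01 ± 0.11, and Ppp2r3c, a regulatory subunit of protein phosphatase 2A that begins 0.1545 Mb after the start of Fam177a, had 0.03 ± 0.06. The count of Ppp2r3c is uncertain too, since 27% of the 31-base words in its transcripts also occur in Fam177a. Of 33 other genes measured within 5 Mb of Fam177a, 3 were called, the other members of the block. Nfkbia, which encodes the NF-kB inhibitor IkB-alpha and is a glucocorticoid target, starts 0.3649 Mb from Fam177a and differed by 0.07 ± 0.12.

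Reads of these genes are hard to assign, because the block consists of copies. Of the 31-base words in Fam177a transcripts, 98.5% also occur in 1700047I17Rik2, and of those in 1700047I17Rik2, 100% occur in Fam177a. Of the words in Srp54a transcripts 72.5% occur in Srp54b, and of those in Srp54b 86.1% occur in Srp54a. Sharing goes beyond the pairs: 61.6% of the Srp54a words and 77% of the Srp54b words occur in Srp54c, a further copy not analysed here, and 41.4% of the Fam177a words and 42% of the 1700047I17Rik2 words occur in Ppp2r3c. How counts were split is therefore uncertain. The pairs were also summed, which does not settle reads shared with Srp54c or Ppp2r3c, a step chosen after their values were seen. Srp54a plus Srp54b gave a log2 difference of 0.50 ± 0.09 (adjusted p = 0.0116, edgeR quasi-likelihood), and Fam177a plus 1700047I17Rik2 gave 0.80 ± 0.14 (adjusted p = 0.0116, edgeR quasi-likelihood).

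Replicate number 1 carried the highest WT level of each of the 4 genes in all 7 conditions of the series, untreated and vehicle libraries included, while no number was highest in KO in all 7. Whether a number marks a set of cells from the same mouse is not given in the labels. With the number 1 libraries of the 4 Dex groups left out, 5 genes were called, among them the 4, and the log2 differences were 1.05 ± 0.15 for Fam177a, 1.11 ± 0.19 for 1700047I17Rik2, 0.85 ± 0.13 for Srp54a and 0.52 ± 0.09 for Srp54b (edgeR quasi-likelihood, chosen after the values were seen).

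**Figure D3:**
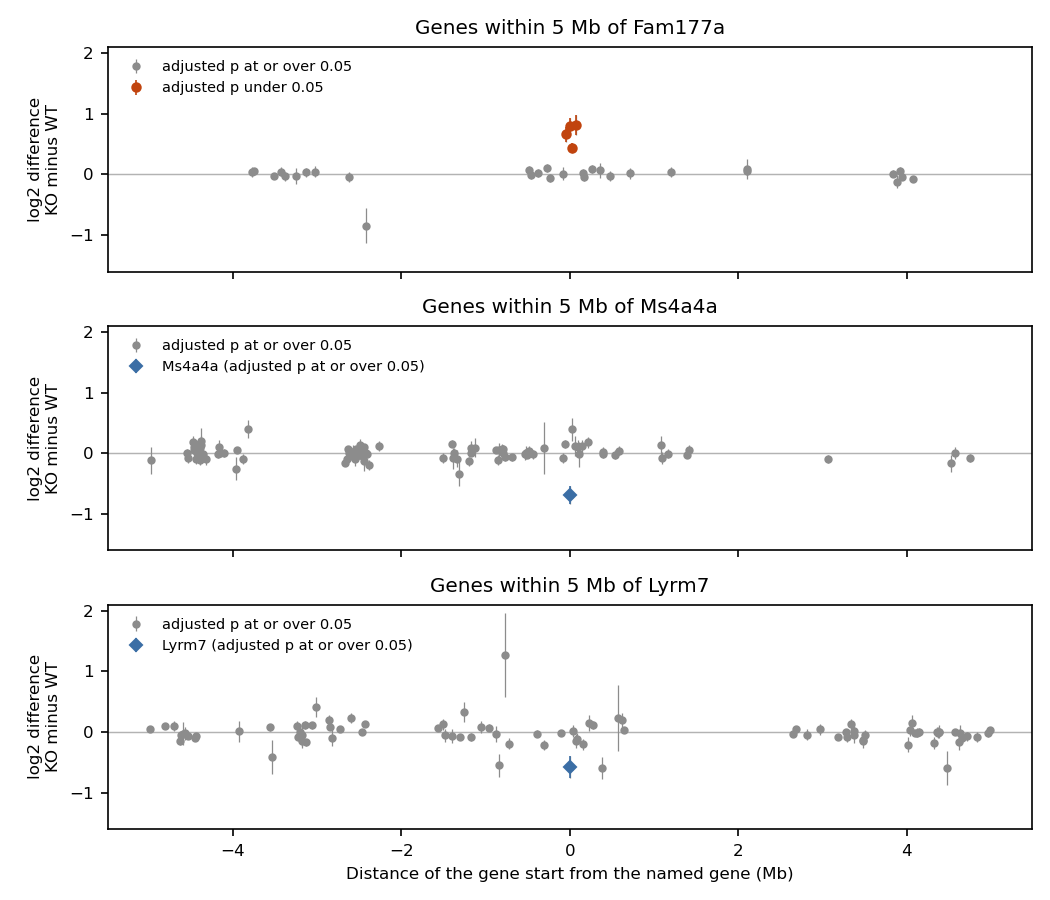
Log2 difference between KO and WT averaged over 2 h and 8 h of Dex (± SE) for each measured gene within 5 Mb of Fam177a on chromosome 12, of Ms4a4a on chromosome 19 and of Lyrm7 on chromosome 11, by the distance of its start from that gene in Mb. In red are the 4 called genes next to each other on chromosome 12; no gene in the other windows is called.

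3830403N18Rik, a protein-coding gene on the X chromosome (chrX:56136572-56153498, plus strand), had the largest fold among the 5 calls and the lowest counts. It stood at 1.52, 3.59 and 4.16 CPM in KO and 0.952, 1.78 and 0.767 CPM in WT at 2 h. Its 8 h values were 1.97, 3.64 and 4.53 CPM in KO and 0.817, 1.12 and 0.863 CPM in WT. At 2 h KO number 1 lay below WT number 2, so the groups overlapped, and at 8 h every KO library was above every WT library. The log2 difference was 1.63 ± 0.30 (95% interval 1.02 to 2.24; adjusted p = 0.0141, edgeR quasi-likelihood). KO number 1 was the lowest KO library and number 3 the highest in all 7 conditions of the series. Of its 31-base words 33.0% occur in Xlr, a lymphocyte-regulated gene of the same X-linked family, which had a log2 difference of 0.37 ± 0.29 (named here after its values were seen).

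In the Ms4a4a neighbourhood of chromosome 19, 0 of 95 other measured genes within 5 Mb were called. There 4 were higher and 2 lower at an unadjusted p under 0.05 (2.43% and 2.55% of all genes). Of the 9 measured Ms4a genes, which encode related membrane proteins and lie together there, 7 had a positive and 2 a negative difference, with a median of 0.11 on the log2 scale, against -0.0025 over all genes. None of the other 8 passed the adjusted test. Ms4a7, found on mature macrophages, stood at 1330.2, 1300.2 and 1168 CPM in KO and 1003, 1169 and 1090.0 CPM in WT at 2 h, and its averaged difference was 0.15 ± 0.06. Ms4a4c, the mouse paralog closest in name, had 0.40 ± 0.19 and Ms4a6d 0.18 ± 0.09. Ms4a6d libraries of KO lay above those of WT at both times, with 561, 579 and 521 CPM in KO and 471, 492 and 393 CPM in WT at 2 h.

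Slc36a1 and Lyrm7 on chromosome 11 had lower values in KO without passing the test. The list of the chromosome 11 cluster around Lyrm7 was drawn up with earlier results of these data known. Counts on it, and in the window around Lyrm7 below, are therefore no test. Of its 11 measured genes, 7 had a negative and 4 a positive difference, with a median of -0.01 on the log2 scale. At an unadjusted p under 0.05, 3 were lower and 0 higher (2.55% and 2.43% of all genes). Slc36a1, a proton-coupled amino acid transporter of lysosomes, stood at 26.9, 29.2 and 28.7 CPM in KO and 47.1, 29.3 and 55.7 CPM in WT at 2 h. At 8 h it stood at 47.1, 52.3 and 48.5 CPM in KO and 80.1, 54.5 and 83.5 CPM in WT. Each KO library was below each WT library of its time, and WT number 2 was the lowest WT library in all 7 conditions. The log2 difference was -0.60 ± 0.18 (adjusted p = 0.686, edgeR quasi-likelihood). Lyrm7, which helps to assemble complex III of the respiratory chain and lies near Slc36a1, differed by -0.57 ± 0.18, and its WT number 2 was likewise the lowest in 7 of 7 conditions. Of 89 other genes measured within 5 Mb of Lyrm7, 0 were called. Among them 4 were higher and 8 lower at an unadjusted p under 0.05 (2.43% and 2.55% of all genes).

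Below the called genes and Ms4a4a in order of p came Lyz2 and a series of lysosomal enzymes, all with higher values in KO, none past the adjusted threshold. Lyz2, the lysozyme of macrophages, stood at 20188, 20396 and 14702 CPM in KO and 12483, 15255 and 11130.2 CPM in WT at 2 h. After 8 h the values were 20665, 18641 and 18288 CPM in KO and 15176, 16082 and 15435 CPM in WT. KO number 3 lay below WT number 2 at 2 h, and at 8 h the genotypes did not overlap. The log2 difference was 0.41 ± 0.09 (adjusted p = 0.141, edgeR quasi-likelihood). Of the 31-base words in Lyz2, 32.8% occur in Lyz1, which differed by 0.39 ± 0.15.

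The cathepsin gene Ctsh stood at 528, 506 and 438 CPM in KO and 364, 428 and 382 CPM in WT at 2 h, and its averaged difference was 0.23 ± 0.06. The genotypes were apart at both times, more widely at 2 h (0.33) than at 8 h (0.14). Ctsa, the protective protein of lysosomal galactosidase and neuraminidase, differed by 0.13 ± 0.03, Glb1, beta-galactosidase, by 0.20 ± 0.05, and Hgsnat, an acetyltransferase of heparan sulfate breakdown, by 0.20 ± 0.06. For Ctsa and Glb1 each KO library was above each WT library of its time, and for Hgsnat only at 8 h. Between same-numbered libraries at 2 h, Ctsa differed by 0.24, 0.09 and 0.06 on the log2 scale. Glb1 differed there by 0.41, 0.12 and 0.09 and Hgsnat by 0.41, 0.08 and 0.13, so number 1 held the largest difference of each. Adjusted p-values of these enzymes lay between 0.374 and 0.559 (edgeR quasi-likelihood).

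The lysosome list as a whole followed with small differences. Of 25 measured members 0 were called, 9 were higher and 1 lower at an unadjusted p under 0.05 (2.43% and 2.55% of all genes), and 20 had a positive difference, with a median of 0.06 on the log2 scale. The median was 0.08 at 2 h and 0.06 at 8 h, against 0.02 after vehicle. On the macrophage identity list 0 of 22 members were called, 5 were higher and 0 lower at an unadjusted p under 0.05, and 21 had a positive difference, with a median of 0.09. The mean log2 CPM over that list was 8.921, 8.826 and 8.820 in KO and 8.666, 8.823 and 8.681 in WT at 2 h. At 8 h it was 8.855, 8.760 and 8.745 in KO and 8.721, 8.684 and 8.665 in WT. KO number 1 was the highest library at both times, and KO number 3 lay below WT number 2 at 2 h. Adgre1 differed by 0.19 ± 0.06, the lysosomal membrane glycoprotein Lamp1 by 0.09 ± 0.04 and Cd68, another lysosomal glycoprotein of macrophages, by 0.11 ± 0.05. In contrast Csf1r, the receptor of M-CSF, and the lineage factor Spi1 (PU.1) differed by 0.00 ± 0.10 and 0.03 ± 0.05. In bulk RNA, a different number of cells of a type and a different amount of RNA in each of them cannot be told apart. Members of these lists overlap, since Lyz2 and Lamp1 count as markers of macrophages and of their lysosomes.

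Glucocorticoid targets showed no difference between KO and WT that passed the test. Of 29 measured targets 0 were called and 0 reached an unadjusted p under 0.05 in either direction, 13 had a positive and 16 a negative difference, and the median was -0.01 on the log2 scale. Fkbp5, the co-chaperone that feeds back on the receptor, stood at 336, 298 and 363 CPM in KO and 375, 343 and 317 CPM in WT at 2 h. Its 8 h values were 1156, 997 and 1045 CPM in KO and 986, 1117 and 948 CPM in WT. The genotypes overlapped at both times, and the averaged difference was 0.01 ± 0.20, with a 95% interval of -0.39 to 0.41.

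Tsc22d3, the gene of GILZ, a leucine zipper protein that mediates anti-inflammatory steroid effects, stood at 1933, 1813 and 1611 CPM in KO and 1817, 1669 and 1577 CPM in WT at 2 h, with an averaged difference of 0.02 ± 0.13 (95% interval -0.26 to 0.29). Per1, the clock gene with a classic glucocorticoid response element, differed by -0.07 ± 0.11, Dusp1, the MAP kinase phosphatase, by 0.07 ± 0.15, Klf9, a Kruppel-like repressor, by 0.02 ± 0.12 and Zbtb16, the zinc-finger repressor PLZF, by 0.10 ± 0.12. All 6 overlapped between genotypes at both times. The lowest p among the targets belonged to Mt2, a metallothionein, at -0.35 ± 0.19 (unadjusted p = 0.0782, edgeR quasi-likelihood). A p that misses the threshold does not show equal levels; the interval of Tsc22d3 allows up to 1.22-fold higher in KO and that of Fkbp5 up to 1.33-fold.

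The receptor itself, Nr3c1, stood at 83.6, 73.8 and 84.2 CPM in KO and 83.1, 79.2 and 89.6 CPM in WT at 2 h, and differed by -0.05 ± 0.06 over both times (95% interval -0.17 to 0.07). Among 12 measured genes of the receptor and its chaperones and cofactors, 0 were called and 10 had a negative difference, with a median of -0.05. Hsp90ab1, an HSP90 chaperone that holds the receptor ready for its ligand, had -0.10 ± 0.05, the only one at an unadjusted p under 0.05. On the list of genes that mark glucocorticoid-treated macrophages, 0 of 27 were called, and 14 had a positive difference, with a median of 0.00. The haemoglobin scavenger receptor Cd163 differed by -0.08 ± 0.20, the efferocytosis receptor Mertk by 0.08 ± 0.09 and the mannose receptor Mrc1 by -0.20 ± 0.10.

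Several inflammatory genes had wide differences and wide errors. Of 19 measured cytokines and chemokines 0 were called, and 4 were higher and 1 lower at an unadjusted p under 0.05 (2.43% and 2.55% of all genes). Cxcl9, a chemokine that draws T cells, stood at 9.08, 3.06 and 5.28 CPM in KO and 2.23, 2.98 and 1.34 CPM in WT at 2 h. After 8 h it stood at 5.70, 1.88 and 3.32 CPM in KO and 1.59, 1.77 and 1.80 CPM in WT. KO libraries lay above WT libraries at both times, by a narrow margin for KO number 2, the lowest KO library in all 7 conditions, and the difference was 1.23 ± 0.31 (adjusted p = 0.374, edgeR quasi-likelihood).

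Ccl5, which draws T cells and monocytes, stood at 487, 307 and 284 CPM in KO and 212, 249 and 154 CPM in WT at 2 h. KO number 1 was the highest KO library, there and in all 7 conditions, and the averaged difference was 0.76 ± 0.22. The complement genes Cfb and C3, factor B and the central component, differed by 0.89 ± 0.25 and 0.62 ± 0.24, and KO number 1 was also the highest KO library for Cfb in 7 of 7 conditions and for C3 in 6. Il1b differed by 1.08 ± 0.55, and its 2 h values of 0.933, 0.315 and 0.754 CPM in KO and 0.238, 0.364 and 0.192 CPM in WT spread widely within both genotypes. Tnf differed by -0.15 ± 0.16 and Ccl2 by -0.29 ± 0.31.

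Feedback genes of NF-kB and immediate early genes leaned lower in KO, with 0 called. Of 21 measured genes of the NF-kB list 17 had a negative difference. At an unadjusted p under 0.05, 3 were lower and 0 higher (2.55% and 2.43% of all genes). The 3 were Nfkbid, an atypical IkB protein (-0.29 ± 0.10), Traf1, an adaptor of TNF receptors (-0.39 ± 0.14), and Tnfaip3, the ubiquitin editor A20 that shuts off NF-kB signalling (-0.27 ± 0.10). Tnfaip3 stood at 43.0, 45.8 and 41.7 CPM in KO and 65.7, 55.5 and 48.4 CPM in WT at 2 h, and there each KO library was below each WT library. Of 25 immediate early and MAP kinase feedback genes 17 had a negative difference. At an unadjusted p under 0.05 (2.55% of all genes lower), 2 were lower, the phosphatase gene Dusp4 (-0.55 ± 0.19) and the AP-1 subunit Jun (-0.14 ± 0.07). The median of this list was -0.13 at 2 h and 0.01 at 8 h.

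Targets of ATF4, the transcription factor of the amino acid and stress response, had lower values in KO with near uniform sign, and none was called. Of 20 measured members 19 had a negative difference, with a median of -0.14 on the log2 scale. At an unadjusted p under 0.05, 4 were lower and 0 higher (2.55% and 2.43% of all genes). The median was -0.14 at 2 h and -0.12 at 8 h, against 0.02 after vehicle at the same times. Slc7a5 and Slc3a2, the subunits of the large neutral amino acid transporter, differed by -0.48 ± 0.17 and -0.17 ± 0.05, and Trib3, a pseudokinase that restrains ATF4, by -0.40 ± 0.19. Slc3a2 stood at 293, 328 and 329 CPM in KO and 354, 366 and 377 CPM in WT at 2 h, and each KO library was below each WT library at both times. The mean log2 CPM over the list was 4.753, 4.925 and 4.966 in KO and 5.104, 4.974 and 5.044 in WT at 2 h, and 4.258, 4.485 and 4.496 in KO and 4.547, 4.562 and 4.516 in WT at 8 h. KO number 1 was the lowest library at both times, and at 8 h KO numbers 2 and 3 lay close to the WT libraries.

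Interferon-stimulated genes had differences of opposite sign at the 2 times, with 0 of 48 members called at either. At 2 h 45 of 48 had a positive difference, with a median of 0.24 on the log2 scale, and at 8 h 39 of 48 had a negative one, with a median of -0.15. The mean log2 CPM over the list was 7.012, 6.596 and 6.896 in KO and 6.517, 6.715 and 6.571 in WT at 2 h, where KO number 2 lay between the WT libraries. At 8 h it was 5.209, 5.045 and 5.004 in KO and 5.211, 5.170 and 5.348 in WT, where KO number 1 lay within the range of WT. Bst2, the tetherin that holds budding viruses, differed by 0.36 at 2 h and 0.16 at 8 h, and Oas2, a sensor of double-stranded RNA, by -0.08 and -0.47. In the test of the change between times, 0 of these genes were called and 4 were lower at 8 h at an unadjusted p under 0.05 (1.02% of all genes).

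Among genes of antigen presentation 0 were called. Of 12 MHC class II genes 9 had a positive difference, with a median of 0.17 at 2 h and 0.01 at 8 h. The mean log2 CPM over this list was 5.831, 5.497 and 5.400 in KO and 5.471, 5.510 and 5.431 in WT at 2 h. There only KO number 1 lay above the WT libraries, and KO number 3 lay below all of them. Of 18 MHC class I genes 2 were lower at an unadjusted p under 0.05 (2.55% of all genes). They were H2-Q6 (-0.66 ± 0.21) and H2-Q7 (-0.53 ± 0.20), non-classical genes of the Qa group, both with overlap between the genotypes at 2 h and at 8 h. H2-Q6 stood at 9.92, 14.2 and 8.90 CPM in KO and 21.3, 21.4 and 11.2 CPM in WT at 2 h, with number 3 the lowest library in each genotype, there and in all 7 conditions. Of its 31-base words 51.8% occur in other genes, so its counts are uncertain.

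**Figure D4:**
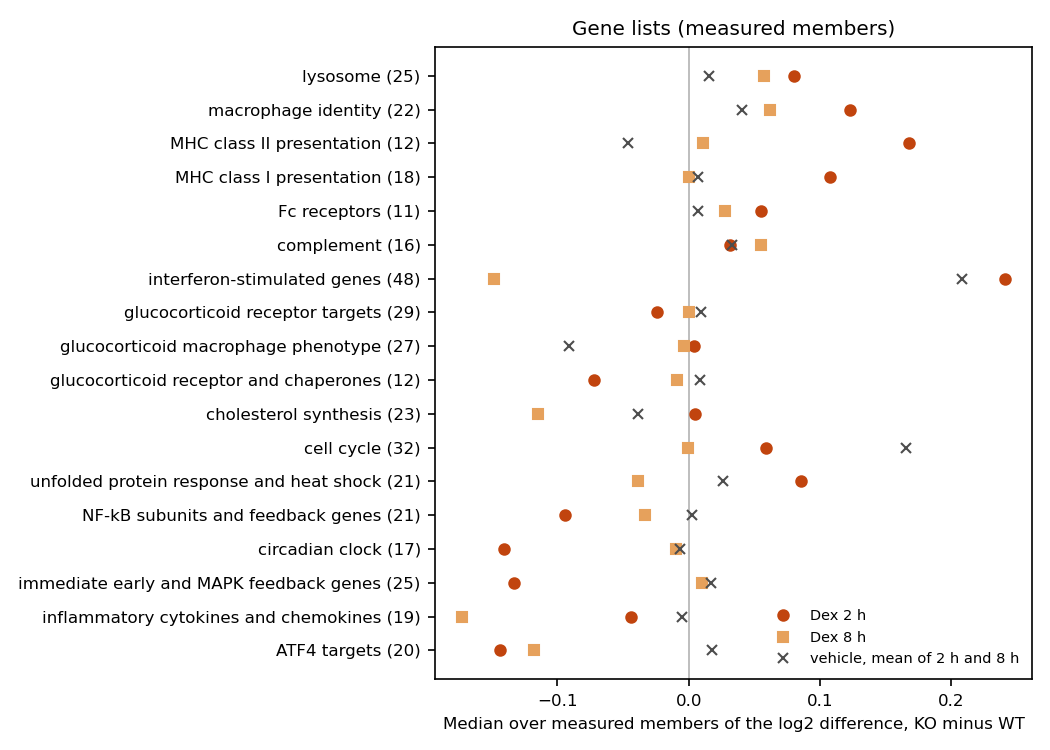
Median log2 difference between KO and WT over the measured members of each list (their number in brackets), after 2 h of Dex (circles), 8 h of Dex (squares) and vehicle averaged over 2 h and 8 h (crosses). Medians lie between -0.18 and 0.25; ATF4 targets are below 0 at both Dex times, lysosome genes above 0, and interferon-stimulated genes on either side of 0.

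At 2 h alone 0 of 11160 genes were called (0%) by edgeR quasi-likelihood, with 947 at an unadjusted p under 0.05 (8.49%), 408 higher (3.66%) and 539 lower (4.83%). Every KO library was above every WT library for 584 genes (5.23%) and below for 562 (5.04%). Replicate numbers pair the libraries at 2 h, since same-numbered KO and WT libraries deviated together from their group means (r = 0.506, 0.350 and 0.683 over genes). With the number as a block in the fit of all 42 libraries, edgeR called 5 genes at 2 h, Srp54b, 3830403N18Rik, Srp54a, Fam177a and Pnpla8, all higher in KO. That block is 1 effect per number across all groups, 8 h included, where the numbers do not pair the libraries. In that fit Fam177a differed by 0.87 ± 0.16 (adjusted p = 0.0139, edgeR quasi-likelihood with the block) and Pnpla8, a phospholipase of mitochondria and peroxisomes, by 0.50 ± 0.10 (adjusted p = 0.0382). Pnpla8 stood at 103, 94.9 and 82.5 CPM in KO and 76.6, 55.8 and 66.1 CPM in WT at 2 h, with each KO library above each WT library. It lies on chromosome 12 as well (chr12:44221370-44322532), outside the 5 Mb window around Fam177a. DESeq2 called 4 other genes at 2 h, Itfg1, Lyz2, Ctsh and Glipr1, and edgeR called 2, Fam177a and Srp54a, without WT number 1.

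At 8 h alone 0 genes were called (0%), with 177 at an unadjusted p under 0.05 (1.59%), 83 higher (0.744%) and 94 lower (0.842%). The genotypes did not overlap for 496 genes above WT (4.44%) and 439 below (3.93%). The 4 chromosome 12 genes and Ms4a4a had similar differences at both times: Fam177a 0.84 ± 0.19 at 2 h and 0.76 ± 0.19 at 8 h, Srp54a 0.73 ± 0.17 and 0.59 ± 0.17, 1700047I17Rik2 0.80 ± 0.23 and 0.83 ± 0.23. The change of the genotype difference between 2 h and 8 h was called for 0 genes (0%), with 344 at an unadjusted p under 0.05 (3.08%); the lowest adjusted p was 0.627 (edgeR quasi-likelihood). DESeq2 also called 0.

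The chromosome 12 differences were not confined to Dex. After vehicle at the same times, 4 of 11160 genes (0.0358%) were called, Ms4a4a, Fam177a, Srp54a and Srp54b, and after 24 h of Dex 5 genes (0.0448%), Ms4a4a, Atf3, Dnajc1, Lair1 and Lpl, none of the block. Fam177a differed by 0.79 ± 0.13 after vehicle and by 0.89 ± 0.19 after 24 h of Dex, Srp54a by 0.65 ± 0.12 and 0.79 ± 0.17, and 1700047I17Rik2 by 0.72 ± 0.16 and 1.07 ± 0.24. The difference between early Dex and vehicle was 0.01 ± 0.19 for Fam177a, 0.01 ± 0.17 for Srp54a and 0.05 ± 0.11 for Srp54b. Over all genes 0 were called in that test (0%), with 301 at an unadjusted p under 0.05 (2.70%) and a lowest adjusted p of 0.954 (edgeR quasi-likelihood). It equals the test of whether the Dex effect differs between genotypes.

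Ms4a4a was lower in KO by a smaller log2 difference after early Dex (-0.69 ± 0.15) than after vehicle (-1.32 ± 0.15). The gap of 0.63 ± 0.21 had an unadjusted p of 0.00537 and did not pass over all genes. At 24 h of Dex the difference was -1.05 ± 0.21. Lyz2 differed by 0.10 ± 0.09 after vehicle and 0.12 ± 0.13 after 24 h of Dex, and Slc7a5 by 0.22 ± 0.17 and -0.83 ± 0.30. Dis3l, a cytoplasmic exosome nuclease, had the values 19.9, 20.7 and 20.8 CPM in KO and 25.6, 23.5 and 27.0 CPM in WT at 2 h, with KO libraries below WT libraries. Its averaged difference was -0.19 ± 0.05 under early Dex and 0.07 ± 0.05 after vehicle (unadjusted p of the gap 5.26e-04, edgeR quasi-likelihood). Against 24 h of Dex, 0 genes were called (0%), 571 stood at an unadjusted p under 0.05 (5.12%), 288 of them higher (2.58%), and the lowest adjusted p was 0.273; DESeq2 called 3, Etv5, Ing3 and Rrp1.

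**Figure D5:**
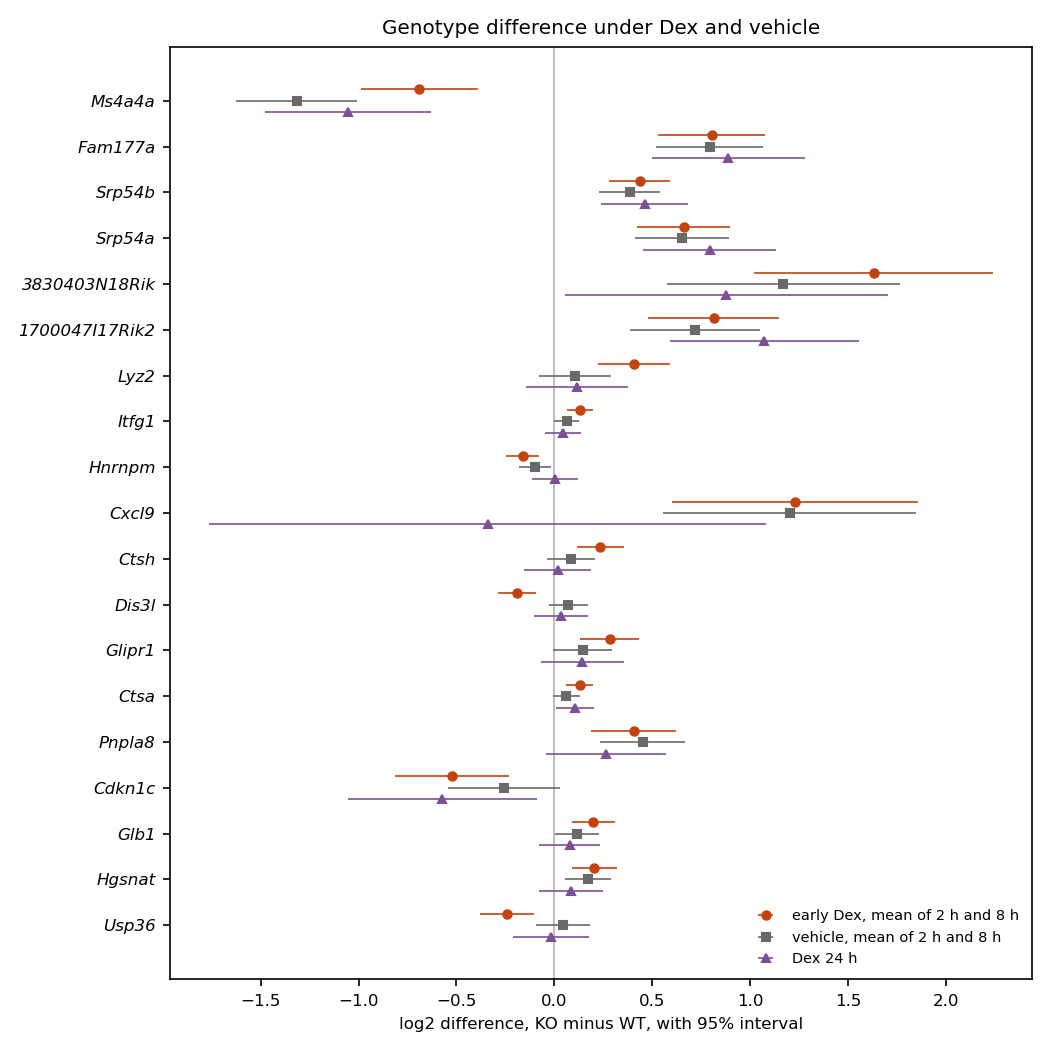
Log2 difference between KO and WT with its 95% interval for Ms4a4a, the 5 called genes and 13 of the 15 next in order of p, under early Dex (mean of 2 h and 8 h, circles), vehicle (mean of 2 h and 8 h, squares) and 24 h of Dex (triangles). The chromosome 12 genes have similar values in all 3 settings, and the 13 genes below them were ordered by their p under early Dex, which is the setting plotted in red.

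Further genes among the 15 next in order of p were not called either. Itfg1, a membrane protein with integrin-like repeats, stood at 207, 200.2 and 189.9 CPM in KO and 176, 174 and 175 CPM in WT at 2 h, with KO above WT, and overlapped at 8 h. Hnrnpm, a splicing factor, differed by -0.16 ± 0.04, and each KO library was below each WT library at both times. Cdkn1c, the cell cycle inhibitor p57, differed by -0.52 ± 0.14, with 16.6, 19.2 and 14.2 CPM in KO and 31.7, 29.4 and 19.6 CPM in WT at 8 h. Usp36, a deubiquitinase of the nucleolus, differed by -0.24 ± 0.07 and Glipr1 by 0.28 ± 0.07. Adjusted p-values of these 5 genes lay between 0.343 and 0.559 (edgeR quasi-likelihood).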

How the data were processed

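RNA sequencing libraries (SMART-Seq mRNA LP kit, per the labels' protocols) were made from macrophages of 14 groups of 3, and 12 libraries are described. The values are expected counts, deposited by the authors as 1 table (11160 genes, 42 libraries). The submitters' processing notes name fastp, HISAT2, Salmon and GRCm38. Not given in the sources used here are tool versions, annotation, strand setting and gene filter. Within 0.01 of a whole number lie 69.5% of values, and the lowest gene total is 256. Estimated counts divide reads among similar transcripts, which makes the values of gene copies uncertain.

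Expected counts were rounded and tested with edgeR 4.0.16 (R 4.3.3): TMM scaling, filterByExpr (0 genes removed), 14 group means over all 42 libraries, quasi-likelihood F test, Benjamini-Hochberg over all genes, called at 0.05. Intervals are 95%. Groups came from titles. Replicates differed by more than counting noise. Replicate numbers of KO and WT correlated at 2 h (r at least 0.350) and less at 8 h (r = 0.0242, 0.252 and -0.00455 for numbers 1, 2 and 3). They were taken as pairs at 2 h only, and the labels state pairs at neither time. The block in the fit of all 42 libraries is nevertheless 1 effect per number across all groups. Alternatives were DESeq2 1.42.0, median-ratio scaling, other filters, the block, a fit on the compared libraries, summed sets, summed copies, and libraries left out. Coordinates, coding sequences and 31-base words are from GENCODE mouse release 21, in which 96.3% of symbols have a single place. The code was tested on simulated counts.

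Genes named are Ms4a4a, those called, the next in order of p to 20, up to 4 per list by lowest p, key glucocorticoid and cytokine genes, Ms4a genes, markers and the chromosome 11 and 12 clusters; others are said to be named after their values were seen. Values of 2 genes that this rule names are not reported here. The members and gene lists were chosen with earlier results of these data known. Lists are described by counts and medians, without a test.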

Additional observations from a re-analysis of the deposited data

How the results depend on the processing

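For the average over 2 h and 8 h, where edgeR called 5 genes, the count was 5 with median-ratio scaling and with no filter, 3 at a mean of at least 5 CPM, 9 with DESeq2 (8 higher, 1 lower), 10 with the replicate number as a block (8 higher, 2 lower), 1 in a fit on the 12 libraries alone, 9 there with the block, 0 with summed sets, 0 with summed sets and the block (678 genes at an unadjusted p under 0.05), 3 with similar copies summed, and 0 to 5 without 1 library. The same 5 genes were among those called with DESeq2. They were also among those called by edgeR with the block, both on all 42 libraries and on the 12 alone. At 2 h the count of 0 became 4 with DESeq2, 5 with the replicate block and 0 to 2 without 1 library. At 8 h it became 1 with the replicate block (3830403N18Rik), 1 in a fit on the 6 libraries alone and 1 there with the block (Ms4a4a both times). The numbers do not pair the libraries at 8 h (r = 0.0242, 0.252 and -0.00455). There only number 2 correlated best with its own number from both genotypes' side. Block results for 8 h and for the average are therefore values beside the unblocked ones. So are those for 2 h from the fit of all 42 libraries, since its number effect spans all groups. For early Dex against 24 h the count of 0 became 2 with the block (Lpl and Etv5) and 3 with DESeq2. The cause of these changes was not tested. Summed sets and left-out libraries have fewer samples, and the averaged test counts the 2 h and 8 h libraries of a number as independent. Deviations from the group means correlated between 2 h and 8 h at r = 0.552, 0.331 and 0.389 for WT numbers 1, 2 and 3. For KO numbers 1, 2 and 3 r was 0.199, 0.277 and -0.109. The tests of 8 h against 2 h and of Dex against vehicle gave 0 calls under every alternative run.

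Of 69 genes compared by their averaged log2 difference, 7 changed sign without 1 library, and none of these was called. Their ranges were -0.0556 to 0.0744 for 2700097O09Rik, -0.0540 to 0.0649 for Csf1r, -0.0276 to 0.0429 for Fkbp5, -0.00916 to 0.0584 for Klf9, -0.0360 to 0.0552 for Ppp2r3c, -0.0111 to 0.0534 for Tsc22d3 and -0.416 to 0.00535 for mt-Co1. With the number 1 libraries of the 4 Dex groups left out the difference was 0.0724 for Ccl2, -0.0940 for Csf1r, -0.00735 for Fkbp5, 0.0220 for Mt2, -0.00603 for Ppp2r3c, -0.00891 for Spi1, 0.0581 for Tnf, -0.00294 for Tsc22d3 and 0.0351 for mt-Co1. No other alternative reversed a gene. Low counts limit 3830403N18Rik, Cxcl9 and Xlr, and counts of similar copies rest on how reads were split.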

Other observations

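Genes of the cell cycle, the circadian clock and the mitochondrial genome had 0 members called in any of the Dex and vehicle comparisons named here. Of 32 measured cell cycle genes 19 had a positive difference between KO and WT under early Dex, with a median of 0.03 on the log2 scale. After vehicle at the same times 30 of 32 were positive, with a median of 0.17, and after 24 h of Dex 23 of 32 were negative, with a median of -0.32. Early Dex and 24 h of Dex differed at an unadjusted p under 0.05 for 11 of these genes, all with a higher difference under early Dex (2.58% of all genes). The mitosis cyclin gene Ccnb2 differed by 0.20 ± 0.15 under early Dex, 0.22 ± 0.15 after vehicle and -0.76 ± 0.25 after 24 h of Dex.

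Of 17 circadian clock genes 14 had a negative difference under early Dex, with a median of -0.07. Bhlhe40, which encodes the repressor DEC1, stood at 12.6, 29.1 and 21.1 CPM in KO and 27.2, 36.1 and 24.9 CPM in WT at 8 h, and its averaged difference was -0.41 ± 0.18. Of 13 transcripts encoded by mitochondrial DNA 11 had a positive difference at 2 h and 12 a negative one at 8 h. Their mean log2 CPM overlapped between the genotypes at both times. It was 8.00, 8.31 and 8.18 in KO and 8.17, 8.26 and 8.09 in WT at 2 h. At 8 h it was 8.14, 8.32 and 8.29 in KO and 8.34, 8.23 and 8.38 in WT. Kit, the receptor of stem cell factor and the only measured mast cell marker, stood at 9.67, 6.05 and 11.5 CPM in KO and 13.3, 11.2 and 12.9 CPM in WT at 2 h, and differed by -0.65 ± 0.25 over both times (unadjusted p = 0.0150, edgeR quasi-likelihood). Its KO and WT ranges overlapped at both times. Those of Bhlhe40 overlapped at both times as well.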
